A study of Mus musculus with 29 samples.

Results

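Acetylation of histone H3 at lysine 27 (H3K27ac) was compared between lymphoid-primed multipotent progenitors (LMPP) of mice that lack an enhancer of Irf8 and wild-type (WT) LSK cells. The members were the 4 libraries of these groups, of 14 H3K27ac libraries and 22 chromatin immunoprecipitation sequencing libraries in all, with 2 libraries per group. Both groups came from bone marrow of C57BL/6 mice and were sorted by magnetic selection and then flow cytometry. WT LSK cells were sorted as Lin- Sca1+ CD117+, and the LMPP by that phenotype with CD135 on the surface and without CD150 or IL-7R. The LMPP, called d56kb LMPP here, carried a deletion of the enhancer 56 kb downstream of the Irf8 start. An unfractionated LSK sort can itself contain LMPP, and genotype and cell type differed together, so an effect of the deletion and an effect of the cell type cannot be told apart. The labels speak of biological duplicates without saying that each came from its own animal, so p-values may measure technical spread only.

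H3K27ac marks active promoters and enhancers. The LSK gate holds blood stem cells and multipotent progenitors, whose chromatin is known for stem-cell factors such as Hlf, Mecom and Meis1. LMPP are multipotent cells that carry the receptor FLT3 (CD135), have begun to open lymphoid genes such as Dntt, and have largely lost the potential to make erythrocytes and megakaryocytes. IRF8 is a transcription factor of monocytes and dendritic cells, and its gene is switched on through several distal enhancers.

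Called regions of the 4 libraries on the 19 autosomes were merged where they overlapped by at least 1 base, which gave 45860 merged regions. A region called in both d56kb LMPP libraries and in neither LSK library belonged to the LMPP class, which had 367 members. The reverse pattern defined the LSK class with 2363 members, and a call in all 4 libraries defined the shared class with 16543. Few class regions touched a gene start. The RefSeq promoter windows of 4 genes are printed to show class regions that did, with Pgr and Aqp1 from the LMPP class and Cpa3 and Tie1 from the LSK class; they were chosen after their values were seen. Each window runs 5′ to 3′ along the gene from 250 bases before to 50 bases after the start (GRCm38.p6). The positions are chr9:8899583-8899882 on the plus strand for Pgr, chr6:55336049-55336348 on the plus strand for Aqp1, chr3:20242132-20242431 on the minus strand for Cpa3 and chr4:118489800-118490099 on the minus strand for Tie1. Capitals mark matches on either strand to short motifs of blood transcription factors. Aqp1 held a RUNX motif, Cpa3 a RUNX, an E-box and a GATA motif in that order, and Tie1 an ETS motif. No searched motif was found in the Pgr window.
Pgr: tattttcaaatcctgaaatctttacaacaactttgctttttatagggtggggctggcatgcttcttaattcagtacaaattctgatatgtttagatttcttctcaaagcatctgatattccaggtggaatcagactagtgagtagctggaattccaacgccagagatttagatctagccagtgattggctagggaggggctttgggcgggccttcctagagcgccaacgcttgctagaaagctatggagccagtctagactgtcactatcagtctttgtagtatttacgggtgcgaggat
Aqp1: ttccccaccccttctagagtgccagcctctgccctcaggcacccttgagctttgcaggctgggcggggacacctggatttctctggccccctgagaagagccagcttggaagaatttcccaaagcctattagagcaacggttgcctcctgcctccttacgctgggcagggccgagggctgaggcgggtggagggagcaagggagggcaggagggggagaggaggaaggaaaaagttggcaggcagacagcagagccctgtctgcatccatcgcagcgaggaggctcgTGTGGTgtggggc
Cpa3: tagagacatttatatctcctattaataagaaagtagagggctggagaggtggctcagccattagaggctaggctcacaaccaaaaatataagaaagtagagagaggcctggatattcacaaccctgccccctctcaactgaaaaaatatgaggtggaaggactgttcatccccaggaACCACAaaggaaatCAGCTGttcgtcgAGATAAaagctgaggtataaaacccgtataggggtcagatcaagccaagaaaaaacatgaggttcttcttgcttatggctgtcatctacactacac
Tie1: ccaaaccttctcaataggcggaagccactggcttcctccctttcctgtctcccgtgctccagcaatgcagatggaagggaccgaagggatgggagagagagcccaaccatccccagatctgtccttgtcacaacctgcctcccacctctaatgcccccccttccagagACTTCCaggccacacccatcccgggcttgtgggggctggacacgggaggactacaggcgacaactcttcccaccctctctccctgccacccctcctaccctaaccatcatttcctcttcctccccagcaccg

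Pgr encodes the progesterone receptor, and its promoter was the second widest region of the LMPP class. Calls covered 3122 and 2615 bases of chr9:8899643-8902861 in the d56kb LMPP libraries and 0 in both LSK libraries. None of the other 10 H3K27ac libraries had a call in it, or in the other LMPP class region of Pgr at chr9:8905398-8905974, of 501 bases in each library. Aqp1, a water channel of red cells, had 1448 and 635 called bases at chr6:55335417-55336864 in d56kb LMPP and 0 in LSK. Of the other 10 libraries, 1 of d56kb monocyte-dendritic cell progenitors (MDP) also had a call there. The start of Cpa3, a mast cell carboxypeptidase, lay in the LSK class at chr3:20242075-20242974, with 832 and 628 bases in LSK, 0 in d56kb LMPP and no call in the other 10 libraries. Tie1, an endothelial receptor tyrosine kinase, had 668 and 974 bases at chr4:118489543-118490516 in LSK and 0 in d56kb LMPP. Only 1 library of IRF8-deficient (IRF8KO) LMPP also had a call there.

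The 4 libraries were alike in enrichment but not in depth. Of all tags, 41.7 and 34.1% lay in called regions in LSK and 36.8 and 38.1% in d56kb LMPP. The LSK libraries held 8.3 and 7.19 M (mega) tags, against 3.67 and 2.99 M in d56kb LMPP. Autosomal regions numbered 30710 and 28557 in LSK and 28180 and 26333 in d56kb LMPP. They were wider in LSK, where the median width was 1286 and 1173 bases, than in d56kb LMPP, where it was 872 and 873. The caller's smallest width of 501 bases made up 20.8 and 24.4% of the LSK regions and 33.2% of the regions in each d56kb LMPP library. Depth moved with the group throughout, and its role in the results that follow was not tested.

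The genes of the sort markers were read first. Each gene was given the bases of called regions nearest to its span within 100000 bases, scaled to equal total covered length per library and given as scaled kb. Kit, which encodes CD117, had 21.8 and 21.5 scaled kb in LSK and 13.6 and 17.9 in d56kb LMPP, and 3 LSK class regions lay there, of 640, 825 and 810 bases. Flt3, which encodes CD135, had 23.4 and 24.4 in LSK and 26.5 and 31.5 in d56kb LMPP. Ly6a, which encodes Sca-1, had 2.93 and 1.65 scaled kb in LSK and 3.22 and 2.72 in d56kb LMPP. Slamf1, which encodes CD150, had 0.334 and 0.519 in LSK and 0 in both d56kb LMPP libraries. Il7r had 0.334 and 0.391 in LSK and was likewise at 0 in both d56kb LMPP libraries. Thus Kit and Flt3 carried wide acetylated loci in each of the 4 libraries, while the loci of the markers excluded from the LMPP gate were at 0 in d56kb LMPP. In LSK those loci were near the smallest call. The Slamf1 region had 501 and 666 bases, and Il7r had 0 LSK class regions and 2 outside the classes. With deeper LSK libraries, this contrast cannot check the sort.

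The deleted element lies downstream of Irf8. The gene lies at chr8:120736358-120756694, and an LSK class region at chr8:120792661-120794507, centred 57.2 kb from the gene's start coordinate, had 758 and 1805 called bases in LSK and 0 in d56kb LMPP. In a window of 4 kb around the +56 kb position, 0 of 6 libraries with the deletion had a call, and WT LMPP had 809 and 642 bases. Both IRF8KO LMPP libraries, which are not labelled with this deletion, also had 0 bases there, so a value of 0 is not unique to the deletion. The region follows from the allele and is no further result. Elsewhere at the locus, regions at -20.7, +15.8, +24.2 and +26.9 kb were called in all 4 libraries. At -20.7 kb the calls covered 1556 and 935 bases in d56kb LMPP and 1582 and 1446 in LSK. At +15.8 kb, within the gene, they covered 1002 and 648 in d56kb LMPP and 1699 and 2057 in LSK, and the groups did not overlap. At +24.2 kb the order was the opposite, with 1163 and 1203 bases against 1009 and 785. The Irf8 locus as a whole had 5.68 and 4.86 scaled kb in d56kb LMPP and 4.71 and 6.42 in LSK, ranges that overlapped. The log2 difference was -0.06 ± 0.61 (limma standard error; adjusted p = 1.0), and its sign changed under some settings. Of the 4 libraries, only 1 of d56kb LMPP had a call just before the start of Irf8, of 501 bases and centred 0.355 kb upstream. In a window of 4 kb around the start, d56kb MDP had 1032 and 643 called bases. WT type 1 classical dendritic cells had 2527 and 2724 there.

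Most of the reproducible acetylation was common to both groups, and the regions of only 1 group were few, narrow and distal. The LMPP class made up 0.8% of the merged regions (95% Wilson interval 0.723 to 0.886%), the LSK class 5.15% (4.95 to 5.36%) and the shared class 36.1% (35.6 to 36.5%). These intervals cover counting error only, and 2 libraries against 2 allow no two-sided permutation p below 0.333, so the classes were not tested. The remaining 26587 regions, 58.0%, were called in 1 library, in 1 of each group or in 3. Regions called in a single library numbered 20215. Merged regions with both LSK libraries and 1 LMPP library numbered 3459, and those with both LMPP libraries and 1 LSK library 739. Exactly 1 library of each group had a call in 2174 regions, more than the 367 of the LMPP class.

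The class regions were narrow. The median merged width was 784 bases in the LMPP class, 955 in the LSK class and 2183 in the shared class. It was 501 in the remaining regions, so narrow width was not particular to the classes of 1 group. Only 21.5% of the LMPP class and 46.4% of the LSK class were wider than 1000 bases, against 96.3% of the shared class. Together the LMPP class covered 0.235 and 0.232 Mb in its libraries and the LSK class 2.12 and 1.75 Mb. The shared class covered 31.3 and 29.7 Mb in d56kb LMPP and 39.8 and 35.7 Mb in LSK, so the same regions were called wider in LSK.

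A gene start was within 1000 bases of 24 LMPP class regions, or 6.54% (4.43 to 9.55%). The share was 12.2% (11.0 to 13.6%) in the LSK class and 48.8% (48.0 to 49.6%) in the shared class, against 22.3% of all merged regions. In the remaining regions it was 6.9% (6.6 to 7.21%), so a low promoter share was not particular to the LMPP and LSK classes. The intervals of the LMPP and LSK classes did not overlap for counting error, and both classes lay far below the shared class. Within gene spans away from a start lay 56.4% of the LMPP class, 49.8% of the LSK class and 28.8% of the shared class. Intergenic positions made up 37.1, 38 and 22.4% in that order. Of the remaining regions, 53.9% lay within gene spans away from a start and 39.2% were intergenic, close to the LMPP class. Distal regions had a median distance to the nearest start of 23.7 kb in the LMPP class, 27.4 kb in the LSK class and 24.8 kb in the shared class, so position among distal regions was similar.

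**Figure D1:**
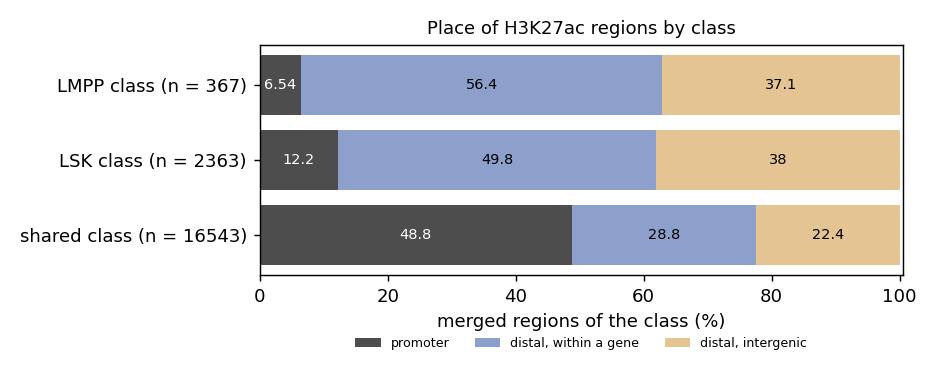
Share of merged H3K27ac regions (%) at a promoter (within 1000 bases of a gene start), away from a start within a gene span, or intergenic, for each class; n is the number of regions. Promoters made up 6.54% of the LMPP class, 12.2% of the LSK class and 48.8% of the shared class.

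Some class regions lay near a shared region, though no such share was taken over the remaining regions as a background. Of the LMPP class, 155 regions (42.2%) lay within 5 kb of a shared region, against 576 (24.4%) of the LSK class. The median distance to a shared region was 7.7 kb and 15.6 kb. A call of the opposite group lay within 1 kb of 107 LMPP class regions (29.2%) and of 348 LSK class regions (14.7%). At Hlf, a factor of stem-cell self-renewal, an LMPP class region at chr11:90418313-90419133 lay beside an LSK class region at chr11:90419301-90420515, 29.0 kb from the nearest start. At Foxp1, a factor of lymphoid cells, the LMPP class region chr6:99283538-99284230 lay beside the LSK class region chr6:99282781-99283456. In both loci the facing calls of the groups lay within 1 kb of each other.

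Windows of 300 bases overlapped by a class region numbered 21 in the LMPP class, 211 in the LSK class and 8647 in the shared class, of 20063 in the table. The median count of CpG dinucleotides was 16, 15 and 22 in these classes, 5 in the 10008 windows without a call and 14 in all windows. Of the windows printed above, Pgr held 6 CpG, Aqp1 8, Cpa3 3 and Tie1 7, all below the median of their class. The GATA letters AGATAA were in 0 of the 21 LMPP class windows, 11.8% of the LSK class, 5.42% of the shared class and 9.57% of all windows. The RUNX letters TGTGGT were in 19.0, 19.9, 12.3 and 14.8% in the same order, and the ETS letters ACTTCC in 19.0, 28.0, 31.3 and 25%. C/EBP letters TTNNGCAA were in 4.76, 12.8, 7.55 and 10.3%, the E-box CAGCTG in 9.52, 20.4, 13 and 15.6%, and the composite ETS-IRF motif in 0.0, 2.84, 2.22 and 2.57%. In the 10008 windows without a call, GATA letters were in 13.5%, RUNX in 17.2% and ETS in 19.2%. C/EBP letters were there in 12.6%, the E-box in 17.6% and ETS-IRF in 2.84%. The GATA share of the LSK class thus lay below that of windows without a call, and the C/EBP shares were close. Both strands were searched, and a match to ETS and one to ETS-IRF can share bases. With 21 windows, 1 window is a large share of the LMPP class. These matches are letters in a window and do not show binding.

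The 8 widest LMPP class regions, ranked by mean called bases in the 2 libraries, lay at genes of varied function. The widest was chr4:46573031-46576633 within Coro2a, an actin-binding coronin, with 3603 and 2440 called bases in d56kb LMPP and 0 in LSK. It was also called in 9 of the other 10 H3K27ac libraries, both WT LMPP libraries included, so LSK lacked a call that nearly every other library had. Coro2a held 3 LMPP class regions, 6 shared regions and no LSK class region. The Pgr promoter came next and was called nowhere else. A region within Fyb2 at chr4:104947812-104950571 had 2118 and 2525 bases and was called in both d56kb granulocyte-monocyte progenitor (GMP) libraries. A region at chr9:106260743-106263125, 14 kb from Alas1, the first enzyme of heme synthesis in most tissues, had 1222 and 2383 bases and a call in all 4 GMP and MDP libraries. The region within Fndc3a at chr14:72704668-72706905 had 1314 and 2238 bases, with the same 4 GMP and MDP calls and 1 in WT LMPP. The others were at Maml3, a Notch coactivator, and near Vps37c and 9230019H11Rik, each with a call in 1 other library.

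Ranked the same way, the first LSK class region was chr6:112953316-112956606, outside the span of Srgap3, a regulator of Rac signalling, and nearest to it. Calls covered 3261 and 3123 bases in LSK, 0 in d56kb LMPP and 0 in the other 10 libraries. A region within Mecom at chr3:30105055-30108478 had 3325 and 2822 bases in LSK and was likewise called in no other library. Mecom encodes EVI1 and related zinc-finger factors needed by blood stem cells. Both wide regions were thus called in 2 of 14 libraries. The next by mean called bases lay in Atp11b (2345 and 2257 bases), Rin3 (2041 and 2505), Nod1 (2883 and 1649), Emb (2139 and 2360), near Pfkfb3 (2138 and 2346) and in Macf1 (2750 and 1671). Each of those 6 was called in 4 to 8 of the other libraries. The widest shared region lay at Erg, a factor of stem and progenitor cells, at chr16:95429457-95460977. It covered 30092 and 30367 bases in d56kb LMPP and 30121 and 29576 in LSK, so its width did not separate the groups.

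Several genes with the most class regions were long, in either class. Arid1b, a chromatin remodeller subunit, had 8 LSK class regions over a span of 353.0 kb, Etv6, an ETS factor needed by blood stem cells, had 7 over 234.0 kb and Wwox had 6 over 913.0 kb. Bach2 and Bcl11a, factors of lymphoid cells, had 5 each. In the LMPP class, Coro2a, Foxp1 and Maml3 had 3 each, over spans of 65.0, 597.0 and 418.0 kb. The LMPP class was spread over 322 genes and the LSK class over 1788, and 104 genes held regions of both.

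The 10 H3K27ac libraries outside the classes were not used to form the classes. Taken whole, the LMPP class was called in a smaller share than the LSK class in each of the 10, with differences from -2.1 to -11.0 percentage points. The LSK class was wider, and in the GMP and MDP libraries the order depended on width. The WT LMPP libraries, which share the cell type with d56kb LMPP, had a call in 5.72 and 7.36% of the LMPP class, 12.4 and 10.7% of the LSK class and 77.3 and 74.8% of the shared class. Both WT LMPP libraries had a call in 2 LMPP class regions (0.545%), 53 LSK class regions (2.24%) and 10952 shared regions (66.2%). The WT LMPP libraries had fewer of their tags in called regions, 23.7 and 15%, and narrower calls. Among class regions of up to 1000 bases, the first WT LMPP library had a call in 2.78% of the LMPP class and 8.37% of the LSK class, and the second in 6.94 and 7.1%. The LMPP class was thus called rarely in LMPP of the other genotype.

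In IRF8KO LMPP, 5.45 and 4.09% of the LMPP class and 7.83 and 7.07% of the LSK class had a call. Later myeloid progenitors with the same deletion had more, with 26.2 and 27.2% of the LMPP class in GMP and 20.4 and 28.1% in MDP. In the same libraries the LSK class had a call in 28.3 and 29.6% (GMP) and 24.2 and 32.2% (MDP). Among regions over 1000 and up to 2000 bases, 72 of the LMPP and 1013 of the LSK class, the order was the opposite. The shares were 36.1 and 38.9% against 30.6 and 30.0% in GMP, and 33.3 and 40.3% against 25.4 and 34.9% in MDP. In WT type 1 classical dendritic cells (cDC1) of the spleen the shares were 20.4 and 12.5% for the LMPP class and 31.4 and 20.4% for the LSK class. In no other library were 136 LMPP class regions (37.1%), 742 LSK class regions (31.4%) and 348 shared regions (2.1%).

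**Figure D2:**
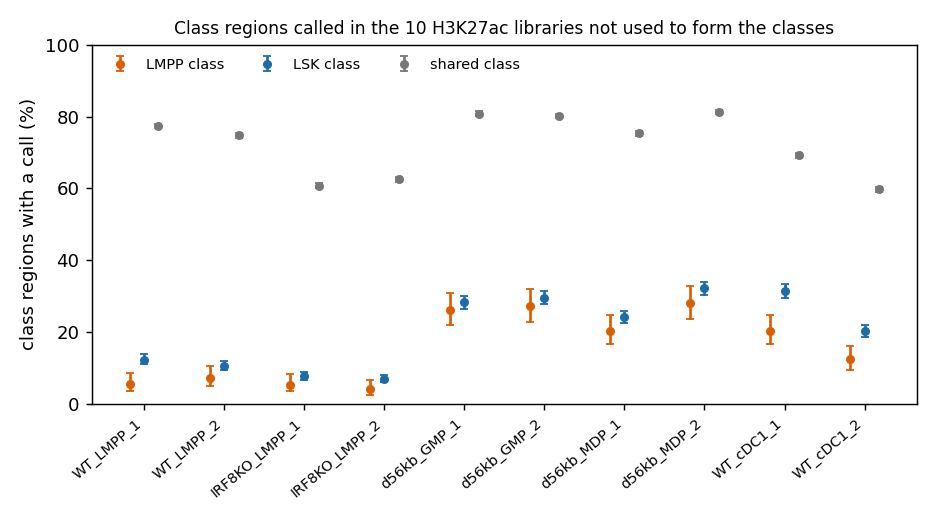
Share of class regions (%) with a called region in each of the 10 H3K27ac libraries that did not form the classes; points are shares and bars are 95% Wilson intervals for counting error. The shared class lay between 59.8 and 81.2%, and the LMPP class was at or below 28.1% and, over all widths, below the LSK class in each library.

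Peaks of transcription factors in mature cells were laid over the classes. IRF8 peaks called in both cDC1 libraries, 18971 in all, overlapped 8.45% of the LMPP class (6.01 to 11.7%), 14.9% of the LSK class (13.6 to 16.4%) and 20.3% of the shared class. IRF8 peaks called in both monocyte libraries, 4126 in all, overlapped 3 LMPP class regions (0.817%), 111 LSK class regions (4.7%) and 6.01% of the shared class. CEBPA peaks of monocytes, 14871 in all, overlapped 9.54, 10.7 and 23.8%. Wider regions have more room for a peak. Among regions of up to 1000 bases the shares for cDC1 IRF8 were 7.99% in the LMPP class, 13.7% in the LSK class and 8.12% in the shared class, and for monocyte CEBPA 7.99, 9.31 and 7.47%. For distal regions of up to 1000 bases the cDC1 IRF8 shares were 8.42% in the LMPP class, 14.7% in the LSK class and 14.5% in the shared class, so the LSK and shared classes were alike there. The CEBPA shares of narrow regions lay close together. No test was made of these shares.

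Locus coverage was then tested gene by gene. The scaled bases of all 14 H3K27ac libraries plus 1000 were taken to log2 and fitted by group in limma, and 14640 autosomal protein-coding genes were tested. No gene passed an adjusted p of 0.05 in d56kb LMPP against LSK (0% higher, 0% lower). At an unadjusted p under 0.05 there were 193 genes higher (1.32%) and 478 lower (3.27%). Both libraries of d56kb LMPP lay above both of LSK in 2826 genes (19.3%) and below in 2482 (17%). Fitted on the 4 libraries alone, 83 genes passed as higher (0.567%) and 55 as lower (0.376%). Over all 14 libraries with only calls wider than 1000 bases, 22 passed as higher and 337 as lower, in groups whose widths of calls also differed. The same model called 104 genes higher (0.71%) and 191 lower (1.3%) for WT LMPP against LSK, a comparison that uses the same LSK libraries. For d56kb LMPP against WT LMPP it called 91 genes higher (0.622%) and 60 lower (0.41%), with the same d56kb LMPP libraries.

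The genes with the smallest p did not pass and are named as such. Pgr was at 0 in both LSK libraries and had 3.75 and 3.57 scaled kb in d56kb LMPP (log2 difference on the scale with 1000 bases added 2.22 ± 0.38, adjusted p = 0.553). WT LMPP had 0 and 1.39 scaled kb there. Myl10, a myosin light chain, had 5.68 and 5.44 in LSK and 11.3 and 11.1 in d56kb LMPP (0.9 ± 0.18, adjusted p = 0.553). Rad18, a ubiquitin ligase of DNA damage tolerance, had 2.68 and 2.76 against 6.84 and 5.94. Atp8b4 had 11.6 and 11.8 against 17.0 and 18.2. Bst2, an interferon-induced antiviral protein also found on plasmacytoid dendritic cells, had 0.991 and 1.26 against 3.04 and 2.75. In these 5 genes the groups did not overlap, and the adjusted p ran from 0.553 to 0.578.

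Map2k6, a kinase that activates p38, had the smallest p of all genes. It had 5.82 and 4.92 scaled kb in LSK, 1.33 and 1.55 in d56kb LMPP and 1.26 and 1.84 in WT LMPP (log2 difference of d56kb LMPP from LSK -1.38 ± 0.19, adjusted p = 0.13). Both LMPP genotypes were low, and the gene held 2 LSK class regions, at chr11:110447969-110450188 and chr11:110475856-110477482. Parva, an actin-binding partner of integrin-linked kinase, had 1.37 and 1.53 in LSK and 0 in both d56kb LMPP libraries, with LSK class regions at chr7:112499407-112501125 and chr7:112503267-112504870. Tfeb, a factor of lysosome genes, had 4.93 and 4.85 against 2.1 and 2.45. Vsir, which encodes the checkpoint protein VISTA, had 7.98 and 6.14 against 3.52 and 3.32. Pstpip2, a regulator of macrophages and neutrophils, had 4.72 and 2.42 against 0.911 and 0.495 and held 4 LSK class regions. These 4 had an adjusted p of 0.553 each. On the 4 libraries alone Pgr (adjusted p = 0.0331), Myl10 (0.0435) and Parva (0.0432) passed.

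**Figure D3:**
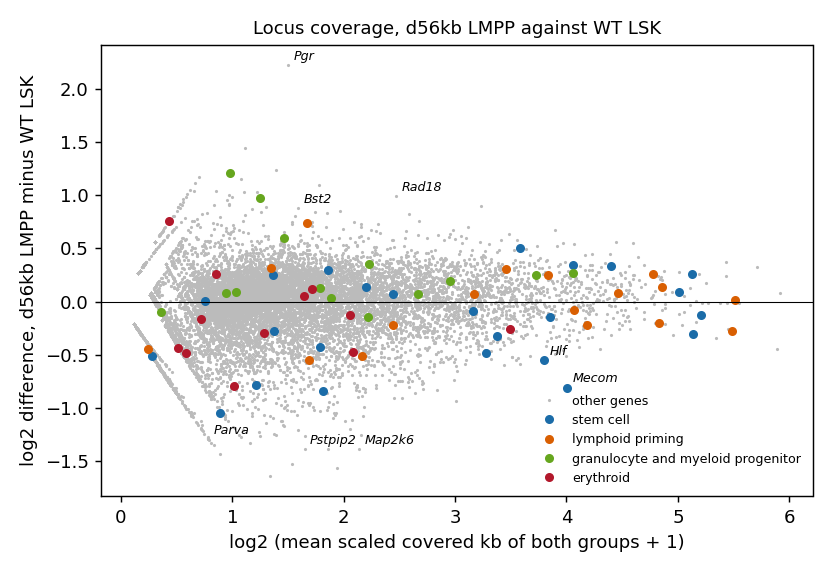
Log2 difference in locus coverage of d56kb LMPP from WT LSK (vertical, limma) against the mean level of both groups (horizontal, log2 of scaled kb plus 1), 1 point per tested gene, with 4 gene lists in colour. No point passed an adjusted p of 0.05; Pgr lies highest and the named low genes Pstpip2 and Map2k6 near -1.4.

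Of 250 merged regions at 30 stem-cell genes, 20 (8.0%) were of the LSK class and 1 (0.4%) of the LMPP class, where all genes had 5.22 and 0.821%. The 20 regions lay at 11 genes: Mecom held 4, Hlf 3, the RNA-binding protein gene Msi2 3, and Erg and Angpt1 2 each. Meis1, Gata2, Nkx2-3, Pdzk1ip1, Prdm16 and Slamf1 had 1 each. The second widest of these was at chr16:95425948-95428543 in Erg, with 2486 and 1260 bases in LSK, and it was called again in all 4 GMP and MDP libraries. The region in Pdzk1ip1 at chr4:115090421-115092450, with 1918 and 1186 bases, was called in no other library. Of the 20, 13 had no call in any of the other 10 libraries.

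In the test of locus coverage 0 of 25 stem-cell genes passed. The median log2 difference was -0.12, against 0.0 over all genes, and 5 genes had an unadjusted p under 0.05, all with a lower value in d56kb LMPP. Mecom (chr3:29951296-30509759) had 19.9 and 18.8 scaled kb in LSK and 8.84 and 12.7 in d56kb LMPP (log2 difference -0.81 ± 0.33, adjusted p = 0.946). Hlf (chr11:90336535-90390917) had 15.2 and 16.0 against 10.1 and 10.5 (-0.55 ± 0.24, adjusted p = 1.0). In WT LMPP it had 4.54 and 2.94, which passed against the same LSK libraries (adjusted p = 0.00801) in less enriched libraries. Esam, an endothelial and stem-cell adhesion molecule, had 2.35 and 1.54 against 0.911 and 0.495. Pdzk1ip1, named after its values were seen, had 3.73 and 3.28 against 1.36 and 1.66 (-0.84, adjusted p = 0.669). In these 4 loci both d56kb LMPP libraries lay below both LSK libraries.

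Other stem-cell loci went the other way, overlapped or, at Procr, also lay lower. Hoxa9, a homeobox factor of stem and multipotent cells, had 12.9 and 14.5 scaled kb in LSK and 16.7 and 18.5 in d56kb LMPP. Cd34 had 9.49 and 8.37 against 13.9 and 12.2, and Erg had 30.6 and 31.1 against 37.6 and 36.5. These 3 genes had higher values in both d56kb LMPP libraries, with adjusted p = 1.0 in limma, and the direction of Hoxa9 and Erg turned without scaling. Meis1 had 40.3 and 35.1 against 25.4 and 36.2, with d56kb LMPP libraries far apart. Procr, a receptor of dormant stem cells, had 2.65 and 3.25 against 1.67 and 2.21, lower in d56kb LMPP without overlap, and did not pass. Gata2 had 7.27 and 9.15 against 8.46 and 6.86 and overlapped. Over the list, 5 genes lay higher and 10 lower without overlap, where all genes had 19.3% higher and 17% lower. Summed over the list, LSK had 283.0 and 275.0 scaled kb and d56kb LMPP 258.0 and 270.0.

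**Figure D4:**
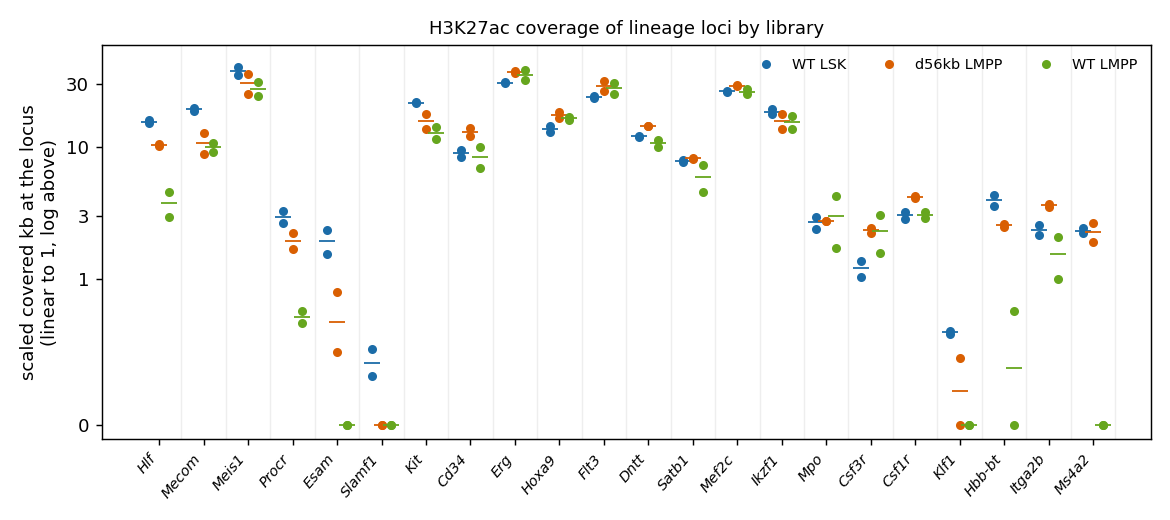
Scaled covered kb (vertical; linear up to 1 and logarithmic above) of 22 lineage and sort-marker loci in each library of WT LSK, d56kb LMPP and WT LMPP; points are libraries and lines are means of 2. Hlf, Mecom and Esam lie lower in both d56kb LMPP libraries than in LSK, while Erg, Hoxa9, Flt3 and Dntt lie higher in scaled kb, a direction that turns without scaling.

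Lymphoid loci were acetylated widely in both groups. Of 285 merged regions at 20 lymphoid priming genes, 17 (5.96%) were of the LSK class and 4 (1.4%) of the LMPP class, near the 5.22 and 0.821% over all genes. Bcl11a, needed for early lymphoid cells, held 5 LSK class regions, and Foxp1 held 4 of the LSK and 3 of the LMPP class. Runx2 held 4 and 1, and Flt3, Ikzf1, Notch1 and Satb1 had 1 LSK class region each. The Flt3 region at chr5:147379316-147380333 had 866 and 791 bases in LSK and was called again in both cDC1 libraries. The Ikzf1 region at chr11:11725038-11726041 had 767 and 781 bases and was called nowhere else. The 3 LMPP class regions of Foxp1, of 828, 693 and 937 bases, lay within the gene.

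Of 17 lymphoid genes tested, 0 passed and 0 had an unadjusted p under 0.05, with a median log2 difference of 0.01. Dntt, the terminal transferase of immature lymphocytes, had 12.1 and 12.0 scaled kb in LSK and 14.5 in each d56kb LMPP library (0.25 ± 0.2, adjusted p = 1.0). It passed in the fit of the 4 libraries alone (adjusted p = 0.0331). Mef2c, a factor of lymphoid choice, had 26.8 and 26.2 against 29.7 and 29.0. Satb1 had 7.96 and 7.63 against 8.32 and 8.18. The direction of Flt3, Dntt, Mef2c and Satb1 turned without scaling. Notch1 had 16.8 and 15.6 against 14.9 and 15.6, and Ikzf1, the Ikaros gene, 19.3 and 17.8 against 17.9 and 13.8. Rag1 had too few called bases to be tested.

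B and T cell genes, markers of cells outside both gates, had no gene past the threshold. Of 10 B cell genes tested, 0 passed, and summed coverage was 10.8 and 7.47 scaled kb in LSK and 9.33 and 9.4 in d56kb LMPP. Ebf1, the B lineage factor, had 1.37 and 0.991 in LSK and 2.94 and 2.29 in d56kb LMPP (unadjusted p = 0.0233, adjusted p = 0.905 in limma). Cd22 and Pou2af1 were at 0 in all 4 libraries. Of 12 T and NK cell genes 0 passed, with sums of 33.2 and 32.9 against 31.8 and 31.1, and Cd3e and Cd8a were at 0 in all 4. At Bank1, a B cell adaptor, the LSK class held the promoter region chr3:136325330-136326760, with 797 and 1431 bases, which carried monocyte IRF8 and CEBPA peaks.

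Summed over their lists in scaled kb, granulocyte and monocyte loci had higher values in both d56kb LMPP libraries. Before scaling, autosomal calls covered 51.0 and 43.6 Mb in LSK and 37.4 and 34.4 Mb in d56kb LMPP, and the order of the sums depends on the scaling. Housekeeping loci also summed higher in both d56kb LMPP libraries. The granulocyte and myeloid progenitor list summed to 53.3 and 52.1 scaled kb in LSK and 65.8 and 64.3 in d56kb LMPP, and the monocyte list to 45.4 and 43.9 against 52.0 and 50.3. None of 18 and 16 tested genes passed, with median log2 differences of 0.08 and 0.0. Of the granulocyte genes, 7 of 18 lay higher and 1 lower without overlap, where all genes had 19.3% higher and 17% lower. Of the monocyte genes, 3 of 16 lay higher and 2 lower, and most of the difference in their sum came from Nr4a1, an immediate early nuclear receptor gene, with 16.1 and 17.4 scaled kb in LSK and 21.8 and 22 in d56kb LMPP. Ctsg, a granule protease, had 0.667 and 0.536 in LSK and 1.93 and 2.35 in d56kb LMPP, and Fcnb, a ficolin of neutrophil precursors, 0 and 0.391 against 1.99 and 1.49. Their unadjusted p was 0.00443 and 0.0146, their adjusted p 0.657 and 0.852. Csf3r, the G-CSF receptor, had 1.37 and 1.02 against 2.21 and 2.44 (0.6 ± 0.53), and Csf1r, the M-CSF receptor, 2.82 and 3.21 against 4.23 and 4.1. Mpo, the myeloperoxidase gene of early myeloid progenitors, had 2.94 and 2.39 against 2.75 and 2.74 and did not separate the groups. Cebpa had 4.01 and 3.8 against 3.15 and 3.71, and Lyz2 1.47 and 0.797 against 0.574 and 0.495. Of the granulocyte and myeloid progenitor list, Camp, S100a8, S100a9 and Ms4a3 were at 0 in all 4 libraries.

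By region class the myeloid lists were near the share of all genes (5.22% LSK class, 0.821% LMPP class). The granulocyte list held 4 LSK class regions (6.67%) and 0 LMPP class regions of 60. The monocyte list held 3 (5.0%) and 0 of 60, and 1 of the 3 was the deleted element of Irf8. In the granulocyte list Cebpb held 2, at chr2:167723272-167723779 and chr2:167726778-167727513, and Cebpa and Spi1, the PU.1 gene, 1 each. The Spi1 region at chr2:91101487-91102248 had 762 and 501 bases in LSK. The summed coverage of granulocyte genes in d56kb LMPP therefore lay outside the LMPP class. A bulk library cannot tell fewer cells with the mark from less of the mark per cell.

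Some erythroid, megakaryocyte and mast cell loci held calls in both groups. A shared region lay at 7 of 20 erythroid genes, 11 of 16 megakaryocyte genes and 3 of 13 mast cell and basophil genes. A region of any kind lay at 12, 13 and 7 genes of these lists. Of 12 erythroid genes tested, 0 passed, the median log2 difference was -0.21, and sums were 27.5 and 30.0 scaled kb in LSK and 24.4 and 23.3 in d56kb LMPP. Hbb-bt, a beta-globin gene, had 3.58 and 4.33 against 2.61 and 2.48, with 0.781 and 0 in WT LMPP. The globin genes Hbb-bs, Hba-a1 and Hba-a2 held no region in the merge of the 4 libraries. Klf1, the erythroid master factor, had 0.623 and 0.645 against 0.456 and 0, and Icam4, an erythroid adhesion molecule, 1.68 and 1.45 against 0.456 and 0.495 (unadjusted p = 0.0208, adjusted p = 0.888 in limma). Tmod1, an erythrocyte skeleton protein, was at 0 in both LSK libraries and had 0.911 and 0.495 in d56kb LMPP. Its LMPP class region chr4:46086614-46087214 was called again in both MDP libraries. With the Aqp1 promoter it made 2 LMPP class regions of 44 (4.55%), and the 1 LSK class region (2.27%) also lay at Aqp1, where all genes had 0.821 and 5.22%.

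The megakaryocyte list had a median of 0.11 over 13 genes and 0 calls. Of these 13, 6 lay higher and 4 lower without overlap, where all genes had 19.3% higher and 17% lower. At an unadjusted p under 0.05 in limma, 1 gene was higher and 2 were lower. Itga2b, the integrin CD41, had 2.16 and 2.55 scaled kb in LSK and 3.67 and 3.53 in d56kb LMPP, and Thbs1 3.24 and 2.35 against 4.42 and 5.56 (unadjusted p = 0.00903, adjusted p = 0.762 in limma). Vwf had 3.54 and 3.59 against 3.8 and 5.07, Gfi1b 2.69 and 2.52 against 2.93 and 3.02, and Pf4 1.22 and 1.6 against 0.922 and 1.89. Gp5 lay lower in d56kb LMPP, with 0.933 and 0.496 against 0.456 and 0 (unadjusted p = 0.0425 in limma), and did not pass. Cd9 also lay lower, with 8.39 and 8.87 against 6.2 and 8.25. The direction of Vwf and Gfi1b turned without scaling. Sums were 69.0 and 70.8 against 72.1 and 74.9. At Cd9 the LSK class held the promoter at chr6:125494179-125495108 and the LMPP class a region beyond the other end of the gene at chr6:125430069-125430840, which all 4 GMP and MDP libraries also called.

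The mast cell and basophil list had the highest LSK class share, 5 of 29 regions (17.2%), with 0 of the LMPP class. Mitf, a factor of mast cells and melanocytes, held 3, all called again in GMP and MDP libraries, and Cpa3 and Gata2 had 1 each. Mitf had 1.83 and 1.67 scaled kb in LSK and 0.456 and 0.495 in d56kb LMPP (unadjusted p = 0.0146, adjusted p = 0.852 in limma). Ms4a2, the beta chain of the IgE receptor, had 2.21 and 2.41 against 2.63 and 1.9, while both WT LMPP libraries were at 0. Against WT LMPP this d56kb LMPP value passed (adjusted p = 0.0138), in libraries of higher enrichment. Of 9 genes tested 0 passed, and Cma1 and Mcpt8 were at 0 in all 4 libraries. Sums were 21.2 and 20.5 in LSK and 19.1 and 16.8 in d56kb LMPP.

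**Figure D5:**
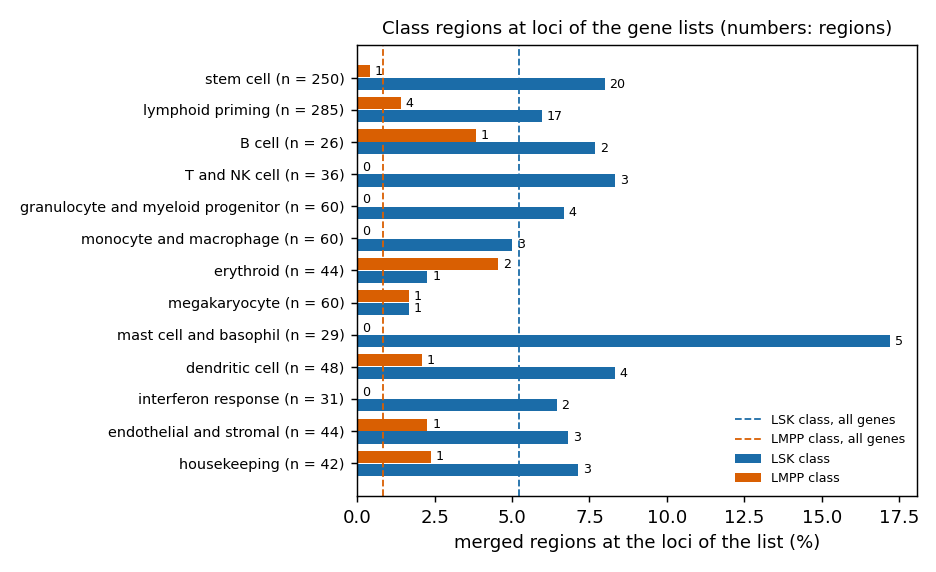
Share of merged regions at the loci of each gene list (%; n is the number of regions) that belong to the LMPP class or the LSK class, with the count beside each bar; dashed lines give the share over all genes. The mast cell and basophil list had 5 LSK class regions of 29 and the stem-cell list 20 of 250, where all genes had 5.22%.

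Dendritic cell loci were mostly at similar values. Of 17 genes tested 0 passed, the median log2 difference was -0.16, and sums were 48.1 and 49.3 scaled kb in LSK and 45.0 and 48.4 in d56kb LMPP. Zbtb46, a factor of classical dendritic cells that endothelial and erythroid progenitors also express, had 3.2 and 2.44 in LSK and 0 and 0.495 in d56kb LMPP (unadjusted p = 0.00108, adjusted p = 0.578 in limma). It was named after its values were seen. The LSK class region given to it, chr2:181491673-181493391, had 1719 and 695 bases and was called again in 1 WT LMPP library and both cDC1 libraries. That region lay over the promoter window of another gene, Abhd16b, at chr2:181492956-181493255. The RefSeq promoter window of Zbtb46 itself, chr2:181424339-181424638, had no call in the 4 libraries. Xcr1 and Clec9a, markers of cDC1, had 2.19 and 2.16 against 2.35 and 2.22, and 5.24 and 5.26 against 4.36 and 4.63. In the merge of the 4 libraries, however, Xcr1 held 0 regions and Clec9a 1, outside the classes. Their coverage thus depends on how the merge of all 14 libraries gave regions to genes and need not mark these genes. An LMPP class region in H2-Eb1, an MHC class II gene, at chr17:34309324-34310149 was also called in both cDC1 libraries.

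Control lists gave the background of these counts. The interferon response list had a median of 0.01 with 0 of 11 passing, the endothelial and stromal list 0 of 12 and the housekeeping list 0.13 with 0 of 13. Endothelial and stromal sums were 22 and 23.8 scaled kb in LSK and 21.2 and 23.1 in d56kb LMPP, and Col1a1 and Dcn, genes of stromal cells, were at 0 in all 4 libraries. Col1a2, a stromal collagen gene, was at 0 in both LSK libraries and had 0.456 and 0.495 in d56kb LMPP, and it passed in the limma fit of the 4 libraries alone with the same adjusted p as Dntt (0.0331). Housekeeping sums were 58.5 and 56.2 against 63.1 and 65.3. Housekeeping loci held 3 LSK class and 1 LMPP class regions of 42 (7.14 and 2.38%), which is as large a share as at several lineage lists. Actb had 9.85 and 9.33 against 10.4 and 10.7.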

How the data were processed

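Per the submitters' processing notes, the authors used Bowtie 1.1.2 for alignment (mm10, GRCm38) and HOMER 4.9 for region calls. Per the file headers, each H3K27ac library was called by itself against input DNA of the same cells, in the histone style, with 500 as the peak size and 4-fold as the smallest enrichment. The factor style served for the peaks of IRF8, which had no input, and of CEBPA, which did. The start and end columns of the deposited lists hold genome positions in bases (a unit of kind other). The deposited score is the same for every region, so width was the only measure of a region.

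Regions of the 4 libraries were merged and classed without a test. Locus coverage was fitted with limma 3.58.1 in R 4.3.3 (trend and robust) over 14 libraries in 7 groups, leaving 7 residual degrees of freedom. Genes covered in 2 or more libraries were tested, 14640 in all, with Benjamini-Hochberg adjustment; the script was tested on simulated data. Each region was given to whichever protein-coding span lay nearest, since the RefSeq gene table (GRCm38.p6) had no strand. For locus coverage the regions came from a merge of all 14 H3K27ac libraries. A gene can thus hold coverage without a region in the merge of the 4. Promoter starts came from the RefSeq promoter table where it had the gene, and otherwise from both ends of the span.

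The 13 lists of 13 to 30 genes and the libraries compared were chosen with earlier results of these data known. Named genes were Irf8, a set of lineage genes, the 5 smallest p per direction, the 8 widest regions per class and list members with class regions. List members with an unadjusted p under 0.05 were added after their values were seen. Alternatives were other scalings, pseudocounts, filters, distances, stricter calls, a covariate for enrichment, a replicate block and leaving out each library. A member of the lineage set is not reported here. Input DNA was not analysed here as libraries of its own.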

Additional observations from a re-analysis of the deposited data

Results flagged for a closer look

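The main comparison used autosomes only. On the sex chromosomes, outside it, there were 5 LMPP class regions, 72 LSK class regions and 356 shared regions, in libraries whose labels do not give the sex of the animals.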

How the results depend on the processing

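Requiring a library's calls to cover at least 0.5 of a merged region gave 403 LMPP class, 4224 LSK class and 10455 shared regions, and using only calls wider than 1000 bases gave 77, 2356 and 9479. Joining regions within 1000 bases gave 344, 2167 and 16133, and adding the sex chromosomes 372, 2435 and 16899. When 1 library was left out, so that the other decided for its group, the LMPP class ran from 544 to 6094 regions and the LSK class from 3855 to 8079. With a promoter window of 2500 bases, 9.81% of the LMPP class, 15.7% of the LSK class and 51.0% of the shared class lay at a promoter. In each of these settings the LSK class outnumbered the LMPP class, except without either d56kb LMPP library, where 1 LMPP library decided and the LMPP class had 4827 and 6094 regions against 4330 and 3855.

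In limma, only the 4 libraries gave 83 genes higher and 55 lower, no filter on low values gave 6 and 21, and only calls wider than 1000 bases gave 22 and 337. Leaving out 1 library, and each other setting run, gave 0 in both directions. Deviations of same-numbered libraries had a correlation of 0.00837 between the groups. With 2 libraries a group, the deviations of library 2 mirror those of library 1. This value therefore cannot show whether the samples were paired. With the replicate block 0 genes were higher and 0 lower, with 656 at an unadjusted p under 0.05. Scaling moved the median of all genes: it was 0.0 with scaling and -0.20 without.

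Of 646 values of 44 named genes, 22 in 13 genes changed sign. Without scaling the log2 difference was -0.03 for Hoxa9, -0.12 for Flt3, -0.12 for Dntt, -0.28 for Satb1, -0.24 for Mef2c, -0.27 for Mpo, -0.16 for Gfi1b, -0.08 for Vwf and -0.13 for Erg. With only calls wider than 1000 bases it was -0.14 for Satb1, 0.06 for Pf4 and 0.08 for Ms4a2, and within 50000 bases 0.07 for Irf8. Leaving out 1 library gave -0.25 to 0.13 for Irf8, -0.23 to 0.06 for Gata2, -0.07 to 0.15 for Mpo, -0.32 to 0.27 for Pf4 and -0.19 to 0.13 for Ms4a2. None of these 13 genes passed as reported, and the cause was not tested. The d56kb LMPP libraries had fewer tags, and what depth does to narrow regions was not tested.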
